A study of Mus musculus with 90 samples.

Results

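Livers of ZT14-fed mice injected with dexamethasone (dex) were compared directly with livers of ZT14-fed mice injected with S961, gene by gene, over all genes. The comparison takes in 8 RNA libraries, 4 with dex and 4 with S961, of the 54 RNA libraries and 90 samples in the series. Each library came from a single mouse, and 11251 of the 24312 gene symbols in the table reached a mean of 0.5 RPKM (reads scaled to transcript length and to the reads of the library) over the injected mice and were tested. All injected mice were wild-type males, C57BL/6 in the labels and C57BL/6N in the study's methods, 10 weeks old and kept on night-restricted feeding for 4 days. They received a single intraperitoneal injection 30 min before lights off at ZT12, of vehicle (PBS), dex at 1 mg/kg, S961, or dex plus S961. The labels give the S961 dose as 44 nM per mouse and the study's methods as 44 nmol/kg. Food was given at ZT12, livers were taken at ZT14, and a group injected with vehicle was left unfed. The doses of dex and S961 are not matched in any unit, so that a difference between the groups is a difference between these 2 injections and not between equal doses.

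Dex is a synthetic agonist of the glucocorticoid receptor (GR, gene Nr3c1), a nuclear receptor that binds DNA once it has bound hormone and whose hormone, corticosterone in mice, peaks before the active phase. S961 is a peptide antagonist of the insulin receptor (gene Insr), whose signal through the IRS proteins and AKT keeps the transcription factor FOXO1 out of the nucleus after a meal. The study used dex to keep GR active and S961 to block insulin signaling through a meal. Its authors report that S961 also raised blood glucose and serum insulin and nonesterified fatty acids in fed mice. The part of these changes in the differences below was not tested. Gluconeogenesis and amino acid breakdown are textbook targets of glucocorticoids, and the synthesis of fatty acids and cholesterol is promoted by insulin through the SREBP factors.

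GR and FOXO1 peaks, mapped by the authors in livers of other mice, lay close to several of the genes described here. For 6 genes that differed between dex and S961, a peak each is printed. Each was picked as lying within 2 kb of the start and holding the letters of a GR or FOXO element. Such a match is a description of the letters. The sequences are from mm9, plus strand, 180 bases each. Capitals mark the letters ACANNNTGT (the core of a GR element), the longer form in which GA precedes that core, or GTAAACA (a FOXO element), each searched on both strands and with any base at N.
Fkbp5, GR peak, chr17:28654979-28655158, + strand: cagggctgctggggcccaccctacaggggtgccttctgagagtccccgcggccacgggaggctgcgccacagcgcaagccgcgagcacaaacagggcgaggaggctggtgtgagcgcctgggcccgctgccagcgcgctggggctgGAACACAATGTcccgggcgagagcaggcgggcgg
Klf15, GR peak, chr6:90413515-90413694, + strand: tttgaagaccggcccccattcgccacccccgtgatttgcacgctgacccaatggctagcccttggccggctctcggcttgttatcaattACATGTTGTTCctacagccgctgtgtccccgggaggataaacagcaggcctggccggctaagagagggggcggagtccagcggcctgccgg
Lcn2, GR peak, chr2:32243365-32243544, + strand: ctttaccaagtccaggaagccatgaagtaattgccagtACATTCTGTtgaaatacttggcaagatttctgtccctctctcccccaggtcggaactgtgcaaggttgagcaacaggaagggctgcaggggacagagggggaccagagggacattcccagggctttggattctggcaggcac
Pck1, GR peak, chr2:172978189-172978368, + strand: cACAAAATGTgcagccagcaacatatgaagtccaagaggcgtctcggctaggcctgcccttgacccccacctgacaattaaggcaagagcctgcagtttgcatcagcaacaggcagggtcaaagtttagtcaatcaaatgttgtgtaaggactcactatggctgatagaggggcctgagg
Txnip, GR peak, chr3:96361610-96361789, + strand: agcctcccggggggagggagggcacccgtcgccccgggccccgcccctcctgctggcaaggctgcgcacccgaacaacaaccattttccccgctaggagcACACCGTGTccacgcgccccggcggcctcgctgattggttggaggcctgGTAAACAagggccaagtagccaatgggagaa
Ppp1r3g, FOXO1 peak, chr13:36051702-36051881, + strand: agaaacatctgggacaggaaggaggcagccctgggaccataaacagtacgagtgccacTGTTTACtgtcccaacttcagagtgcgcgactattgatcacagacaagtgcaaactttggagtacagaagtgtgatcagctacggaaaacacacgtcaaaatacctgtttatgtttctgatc
The first 4 sequences lie near genes that were higher with dex, Fkbp5 and Klf15 holding the longer GR form. The Txnip peak, 181 bases upstream of the start, holds both elements, and the Ppp1r3g peak, 1083 bases downstream of the start, holds the FOXO element on the minus strand. Both genes were higher with S961. Within 2 kb of the starts of the leading genes and of the genes the study names lay 22 peaks. Those at Ddit4, Gadd45g, Rab30, Cyp4a10, G6pc, Insig2 and Ulk1 hold none of the letters marked here. The peaks of both factors overlapped at Txnip, Ppp1r3g, Pck1, Klf15, G6pc and Cyp4a10. At Txnip, Ppp1r3g, Pck1 and Klf15 the overlapping peak of the other factor, not printed, holds the same letters. These overlapping peaks share most of their bases, so their shared letters cannot tell whether a motif is particular to either factor. Over all peaks, ACANNNTGT occurred in 20.3% of GR and 12.7% of FOXO1 peaks, and the longer form in 7.79% and 3.71%. GTAAACA occurred in 7.29% of GR and 18.8% of FOXO1 peaks.

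At a Benjamini-Hochberg (BH) limma adjusted p under 0.05, 318 genes were higher with dex (2.83% of those tested) and 522 were higher with S961 (4.64%), 840 in all (7.47%). The median log2 difference over all genes was -0.01, where every log2 difference is dex minus S961 on log2(RPKM + 0.5). The called genes had a median difference of 0.759 in size on the log2 scale when higher with dex and 0.707 when higher with S961, against 0.166 over all genes tested, and 101 and 127 of them differed by at least 1. The 4 dex mice lay entirely above the 4 S961 mice for 496 genes (4.41%) and entirely below for 717 (6.37%), which covered 286 of the 318 and 450 of the 522 called genes. Replicate 4 of each group carries a library number from another series than replicates 1 to 3. Within replicates 1 to 3 alone, 440 genes were higher with dex and 704 with S961, and with the series as a term the counts were 568 and 875. With only the 8 libraries of the comparison in the fit, 146 and 255 genes were called. At the edge of the threshold stood Ube2e2, just inside with an adjusted p of 0.05, and Nr1h4, just outside with 0.0502.

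**Figure D1:**
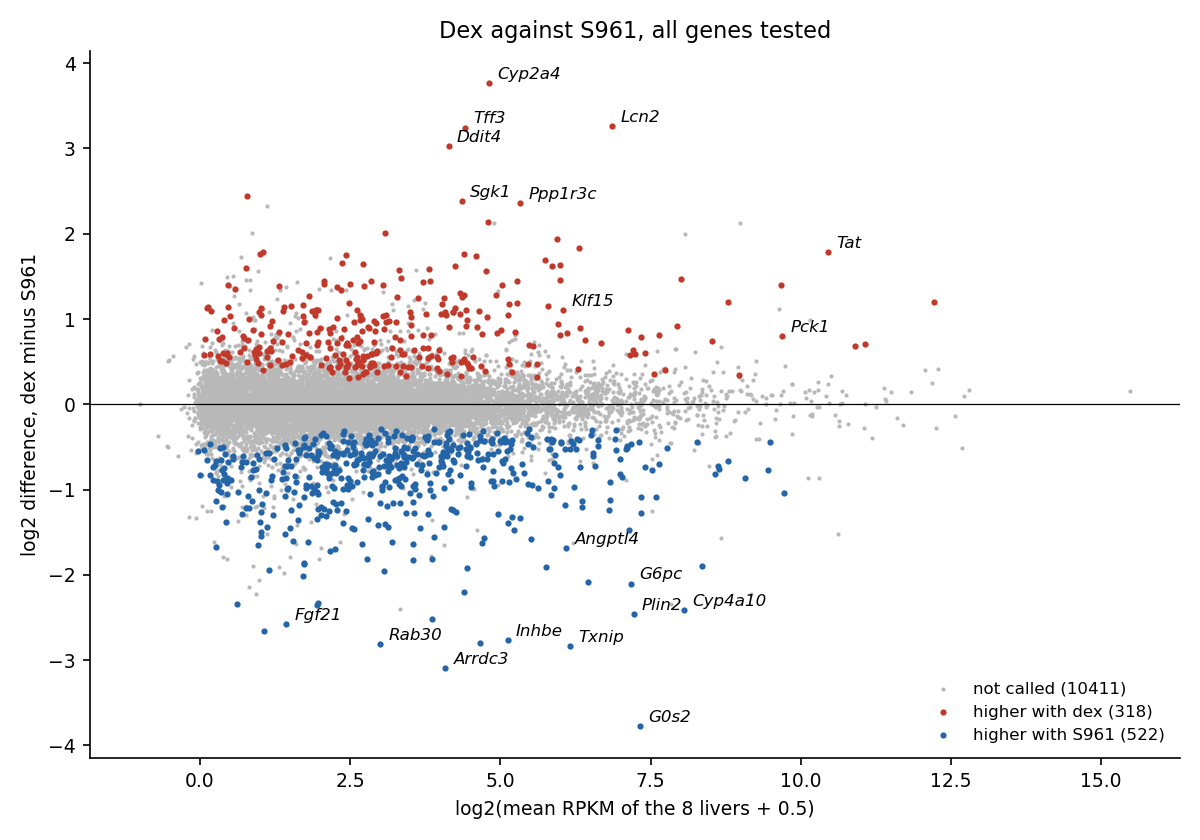
Log2 difference between dex and S961 livers (y axis, dex minus S961) against log2 of the mean RPKM of the 8 livers plus 0.5 (x axis), 1 point per gene tested. Red points are the 318 genes higher with dex, blue points the 522 higher with S961, and gray points were not called. Called genes are seen at low and at high levels, among them Fgf21 at a mean of 4.19 RPKM with S961 and Tat at 2135 RPKM with dex.

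The 12 genes with the largest excess in dex livers among the called genes without overlap included classic GR targets, a glycogen-targeting subunit and acute-phase genes. Ddit4 (NM_029083, chromosome 10, 59412423 to 59414518, mm9), an inhibitor of mTORC1 signaling that glucocorticoids induce, stood at 32.9, 30.2, 27.4 and 32.2 RPKM in the 4 dex mice and at 3.32, 5.57, 1.93 and 3.27 RPKM in the 4 S961 mice. The dex values were tight and far above every S961 value, a log2 difference of 3.03 (SE 0.29, limma adjusted p = 4.2e-06). Sgk1 (NM_011361, chromosome 10, 21601990 to 21719709), a kinase induced by glucocorticoids and mineralocorticoids, had 57.8, 31.2, 28.9 and 19.6 RPKM with dex and 5.72, 6.45, 5.54 and 5.11 RPKM with S961. Dex replicate 1 was the highest, the S961 mice were nearly alike, and the log2 difference was 2.38 (SE 0.27, limma adjusted p = 2.4e-05). Lcn2 (NM_008491, chromosome 2, 32240153 to 32243317), which encodes the acute-phase protein lipocalin 2, stood at 231, 243, 200 and 112 RPKM with dex against 21, 101, 11.5 and 5.23 with S961. S961 replicate 2 came close to the lowest dex mouse without overlapping it (3.27, SE 0.64, limma adjusted p = 0.0026). Tff3, a secreted trefoil peptide, had 77.9, 38.4, 32.4 and 5.59 RPKM with dex and 0.815 to 4.55 RPKM with S961 (log2 difference 3.25, SE 0.66, limma adjusted p = 0.0039). Tff3 averaged 3.73 RPKM in mice given dex plus S961, near the 3.80 RPKM of fed vehicle mice. This set also held Ppp1r3c (2.36), Saa3 (2.01), Gadd45g (1.94), Tat (1.79), Mdm1 (1.79) and the microRNA gene Mir27b, which is listed at 0 in all S961 mice and whose short row rests on few reads. Gadd45g, a growth-arrest gene, was no longer called without S961 replicate 3 or with the 8 libraries fitted alone.

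The 12 genes with the largest excess in S961 livers were led by genes of lipid storage, arrestin family genes and hormones secreted by the liver. G0s2 (NM_008059, chromosome 1, 195098355 to 195099382), an inhibitor of the lipase ATGL, stood at 10.3, 14.5, 16.2 and 63.5 RPKM in the dex mice and at 206, 298, 206 and 469 RPKM in the S961 mice. The groups were far apart even though dex replicate 4 lay above the other dex mice, with a log2 difference of -3.77 (SE 0.53, limma adjusted p = 0.00014). Plin2 (NM_007408, chromosome 4, 86294290 to 86315964), the main coat protein of hepatocyte lipid droplets, had 47.6, 37.9, 42.7 and 49.3 RPKM with dex and 163, 330, 231 and 287 RPKM with S961. Its difference of -2.46 (SE 0.21) had the smallest adjusted p of the named genes (limma, 1.9e-06). Txnip (NM_001009935, chromosome 3, 96361880 to 96365806), an arrestin-family inhibitor of glucose uptake and of thioredoxin, stood at 12.1, 12.6, 18.4 and 22.6 RPKM with dex against 68.4, 156, 93.6 and 184 with S961 (-2.84, SE 0.38, limma adjusted p = 0.00011). Its relative Arrdc3 (NM_001042591, chromosome 13, 81022645 to 81035296) had 1.60, 1.62, 3.04 and 5.19 RPKM with dex and 20.2, 13.8, 60.2 and 26.0 with S961. The log2 difference was -3.09 (SE 0.34, limma adjusted p = 1.8e-05), and fed vehicle mice stood with the S961 mice, at 20.8 ± 1.90 RPKM (SD, n = 4). The others of this set were Rab30 (-2.81), Inhbe (-2.76), Fgf21 (-2.58), Cyp4a10 (-2.41), Ppp1r3g (-2.35), Slc25a30 (-2.20), and the short small-RNA rows Mir6916 and Snord45b, both listed at 0 in all dex mice and uncertain for the same reason as Mir27b. Cyp4a10 has near-identical copies, so that its reads could be split between them.

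**Figure D2:**
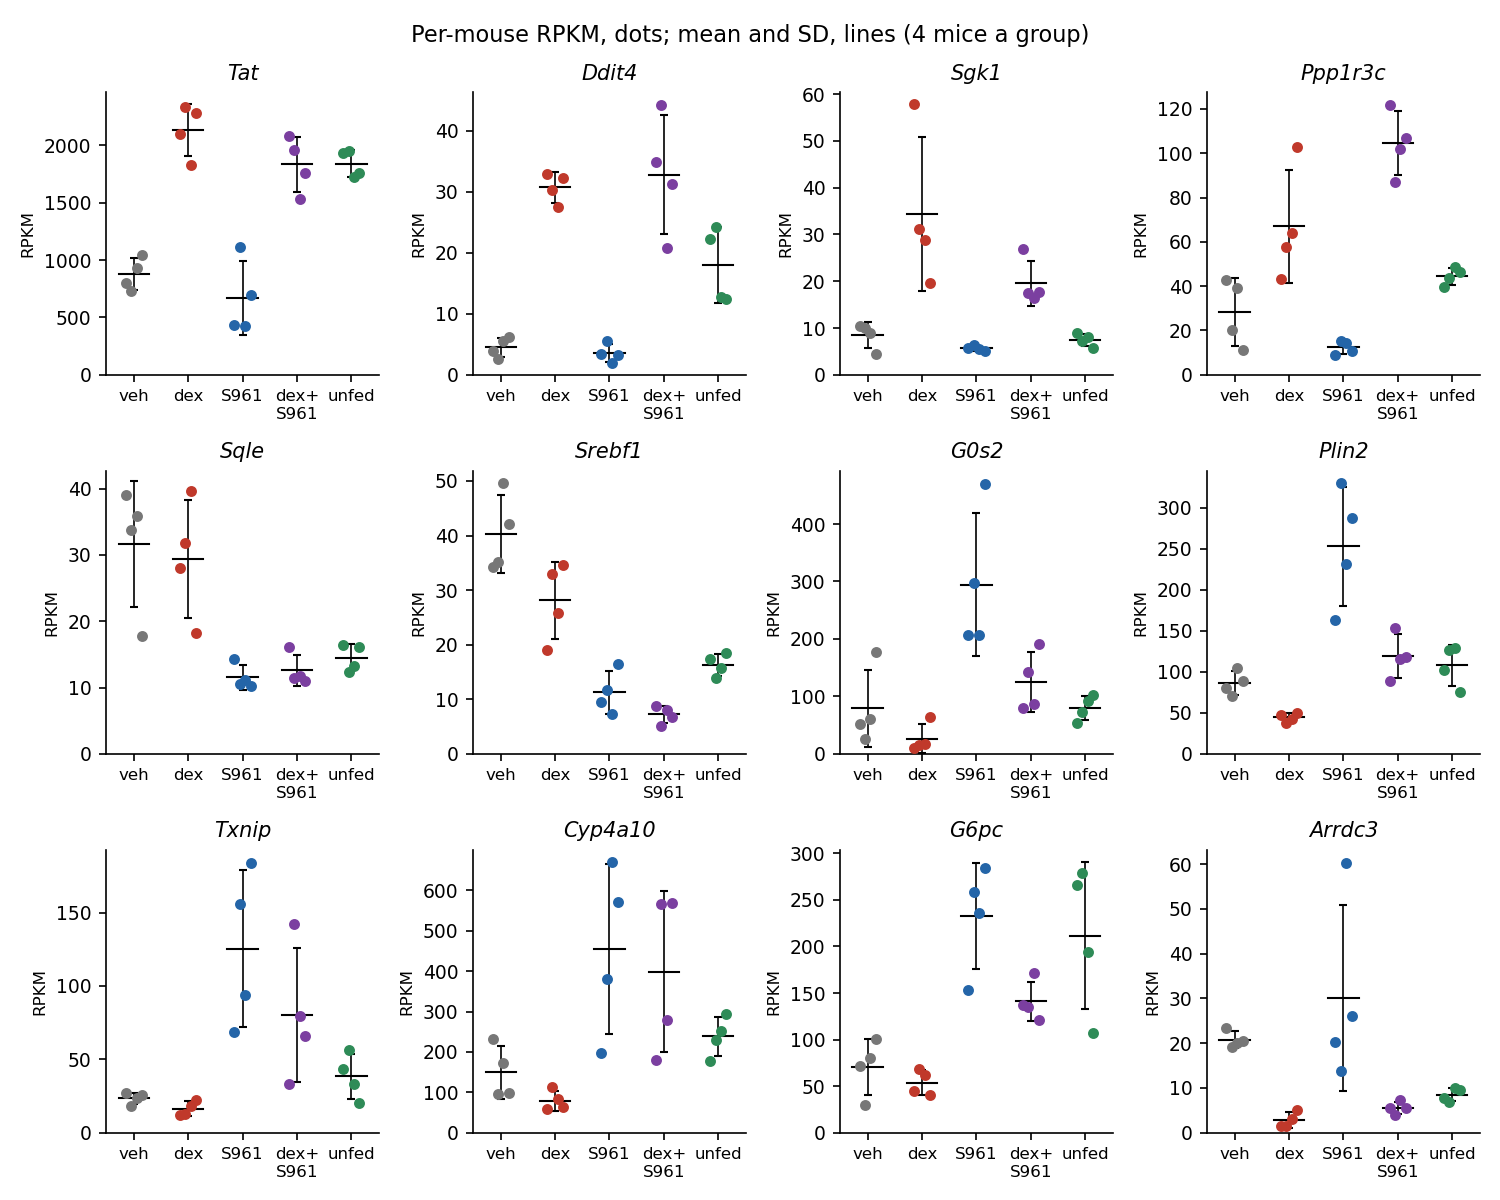
RPKM (y axis, linear from 0) of 12 genes in each of the 20 injected mice, by group (x axis, fed vehicle, fed dex, fed S961, fed dex plus S961, unfed vehicle). Dots are mice, and lines give the mean and SD of 4 mice. Tat, Ddit4, Sgk1, Ppp1r3c, Sqle and Srebf1 were higher with dex than with S961, and G0s2, Plin2, Txnip, Cyp4a10, G6pc and Arrdc3 were lower, with no overlap between the groups.

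Each treatment was also set against the fed vehicle mice in the same fit. These contrasts share the vehicle mice with each other and the treated mice with the direct contrast, so their values are only placed side by side. Against vehicle, 359 genes differed with dex (3.19%), 113 higher (1%) and 246 lower (2.19%), and 214 with S961 (1.9%), 106 higher (0.942%) and 108 lower (0.96%). All 4 vehicle contrasts had a median below 0, by -0.10 for dex, -0.08 for S961, -0.14 for dex plus S961 and -0.10 for unfed mice (log2). When libraries were rescaled by their median ratio to a reference, there were 168 higher and 107 lower with dex, and 144 higher and 55 lower with S961. Under that scaling dex against S961 gave 337 genes higher with dex and 476 higher with S961, close to the split given above. Dex plus S961 differed from vehicle in 1193 genes (10.6%), 304 higher (2.7%) and 889 lower (7.9%), and after rescaling 468 were higher and 305 lower. Unfed mice differed in 352 genes (3.13%), 65 higher (0.578%) and 287 lower (2.55%), and after rescaling 116 were higher and 100 lower.

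Of the 18 GR target genes tested from a list of 19, 10 were higher with dex and 0 were higher with S961. The median log2 difference was 0.96, against -0.01 over all genes. Over all genes tested 2.83% were higher with dex and 4.64% with S961, the shares to set beside the counts of every list. The lists were chosen with earlier results of these data known, so their counts are descriptions. They hold genes the study names for dex or S961, here Tat, Klf15 and Fkbp5, and G6pc, Insig2, Igfbp1 and Ulk1 among the FOXO1 targets below. Against fed vehicle the median of the GR list was 0.86 for dex and -0.11 for S961, where all genes had -0.10 and -0.08. With median-ratio scaling the GR list had 0.97 and -0.02. The 10 genes were Ddit4, Sgk1, Tat, Tsc22d3, Cdkn1a, Dusp1, Klf15, Lpin1, Fkbp5 and Errfi1. Tat (NM_146214, chromosome 8, 112514337 to 112523703), tyrosine aminotransferase, stood at 2096, 2331, 1830 and 2285 RPKM in the dex mice and at 430, 1114, 429 and 695 RPKM in the S961 mice. S961 replicate 2 was the highest of its group and still below every dex mouse, and the difference was 1.79 (SE 0.22, limma adjusted p = 4.6e-05). Tat averaged 875 ± 139 RPKM (SD, n = 4) in vehicle mice, 1835 ± 240 with dex plus S961 and 1839 ± 118 in unfed mice. Tsc22d3 (GILZ, a mediator of glucocorticoid action) had 59.6 to 143 RPKM with dex and 21.5 to 32.3 with S961 (1.63, SE 0.21). Klf15, a transcription factor for amino acid breakdown, had 75.7 to 107 RPKM against 27.3 to 49.0 (1.11, SE 0.16), and Fkbp5, a co-chaperone of GR, had 74.3 to 101 against 41.0 to 59.2 (0.84, SE 0.18, limma adjusted p = 0.005). Dusp1, a phosphatase of MAP kinases, had 38.9 to 46.5 RPKM with dex and 9.54 to 20.9 with S961 (1.28, SE 0.24). The metallothioneins Mt1 and Mt2 were not called, with log2 differences of 0.99 and 1.12 and limma adjusted p of 0.19 and 0.15. Leaving out each library in turn left 8 to 11 members higher with dex.

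Cholesterol synthesis differed the same way, with 10 of 23 genes tested higher with dex, 1 higher with S961 (Hsd17b7, a reductase of the distal pathway) and a median difference of 0.46. Against vehicle the list's median was -0.02 for dex and -0.42 for S961, and 0.09 and -0.33 with median-ratio scaling. In the same contrasts 7 members were lower with S961 and 1 was higher with dex. Sqle, squalene epoxidase, stood at 28, 31.8, 39.7 and 18.2 RPKM in the dex mice and at 14.3, 10.5, 11.1 and 10.2 RPKM in the S961 mice. The lowest dex mouse, replicate 4, lay above every S961 mouse (1.28, SE 0.23, limma adjusted p = 0.0014). Mvd, mevalonate decarboxylase, had 3.27 to 5.86 RPKM with dex and 1.03 to 2.00 with S961 (1.28, SE 0.19, limma adjusted p = 0.00023). Both were lower with S961 than in vehicle mice, Sqle by -1.37 and Mvd by -1.54 (limma adjusted p = 0.0042 and 0.00052). Insig1, which retains SREBP in the endoplasmic reticulum, and the enzymes Dhcr7, Lss and Fdft1 were also called. With the 8 libraries fitted alone, 7 members were higher with dex and 0 with S961, and Hsd17b7 was not called in 9 of 20 alternatives.

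Fatty acid synthesis genes divided, with 3 of 18 higher with dex, 3 higher with S961 and a median of -0.11. Thrsp (Spot 14, a lipogenic regulator) stood at 1187, 1277, 1240 and 949 RPKM with dex and 686, 498, 306 and 355 with S961 (1.40, SE 0.28, limma adjusted p = 0.0039). Srebf1, the SREBP factor of fatty acid synthesis, had 19.1 to 34.6 RPKM with dex and 7.28 to 16.5 with S961 (1.30, SE 0.22, limma adjusted p = 0.00079), both below the 40.3 ± 7.11 (SD, n = 4) of vehicle mice, of which only the S961 difference was called (-1.84, limma adjusted p = 0.00052, against 0.2 for dex). Fads1, a desaturase of polyunsaturated fatty acids, was higher with dex (0.57), and the elongase Elovl5 (-1.12), the mitochondrial acetyl-CoA carboxylase Acacb (-0.72) and the glycerol acyltransferase Gpam (-0.66) were higher with S961. The groups overlapped for Gpam, which was not called in 10 of 20 alternatives. The number higher with S961 was 5 without dex replicate 4 and 1 without S961 replicate 2, and the median ran from -0.33 to -0.01 with 1 library left out. Fasn and Scd1, the best-known enzymes of the pathway, were not called, with differences of -0.08 and -0.25 (limma adjusted p = 0.82 and 0.73).

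Genes of fatty acid oxidation and ketogenesis lay on the S961 side. Of 21 tested, 0 were higher with dex, 11 were higher with S961, and the median difference was -0.59, with 20 of the 21 below 0. Against vehicle the list's median was -0.18 for dex and 0.43 for S961, where all genes had -0.10 and -0.08. With median-ratio scaling the list had -0.07 and 0.515. Cyp4a10 (NM_010011, chromosome 4, 115190869 to 115206254), a fatty acid omega-hydroxylase induced by PPAR alpha, stood at 58.4, 113, 82.4 and 64.4 RPKM with dex and at 197, 381, 669 and 572 with S961. The S961 mice spread widely, but all lay above the dex mice (-2.41, SE 0.40, limma adjusted p = 0.00067). Acot1, an acyl-CoA thioesterase, had 7.14 to 9.12 RPKM against 17.5 to 53.7 (-1.92, SE 0.28). Ehhadh, the peroxisomal bifunctional enzyme, had 61.7 to 82.5 against 147 to 264 (-1.47, SE 0.23), and Vnn1, a pantetheinase, had 6.05 to 10.6 against 16.6 to 29.6 (-1.43, SE 0.20). Acsl1, Slc25a20, Cpt1a, Cpt2 and Hadha, which activate, carry and oxidize fatty acids, were also called. Pdk4, which blocks pyruvate oxidation, was not called (-1.81, limma adjusted p = 0.056), nor was Cyp4a14 (-2.35, 0.092). The number of members higher with S961 was 10 to 16 with 1 library left out, and 8 with the 8 libraries fitted alone.

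Of 12 lipid droplet and lipase genes, 6 were higher with S961 and 2 with dex, and the median was -0.63. G0s2 and Plin2 were described above. Angptl4, a secreted inhibitor of lipoprotein lipase, had 21.6, 19.9, 30.5 and 64.0 RPKM with dex and 86.7, 118, 68.7 and 135 with S961 (-1.69, SE 0.28, limma adjusted p = 0.00079). Dex replicate 4 came close to the S961 mice, and mice with dex plus S961 averaged 114 RPKM. Cidec, a droplet fusion protein, had 2.09 to 3.53 RPKM against 6.68 to 12.1 (-1.64, SE 0.21), and Lipe and Hilpda were the other 2. On the dex side, Plin5, which ties droplets to mitochondria, was modestly higher with 53.0 to 58.0 RPKM against 34.7 to 46.3 (0.47, SE 0.12, limma adjusted p = 0.015), and Lpl, lipoprotein lipase, was near the threshold (0.86, limma adjusted p = 0.047) and not called in 7 of 20 alternatives. Plin2 thus stood on opposite sides of the 85.8 ± 14.7 RPKM (SD, n = 4) of vehicle mice, lower with dex (-0.94, limma adjusted p = 0.018) and higher with S961 (1.52, 0.001), as values of contrasts that share the vehicle mice.

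**Figure D3:**
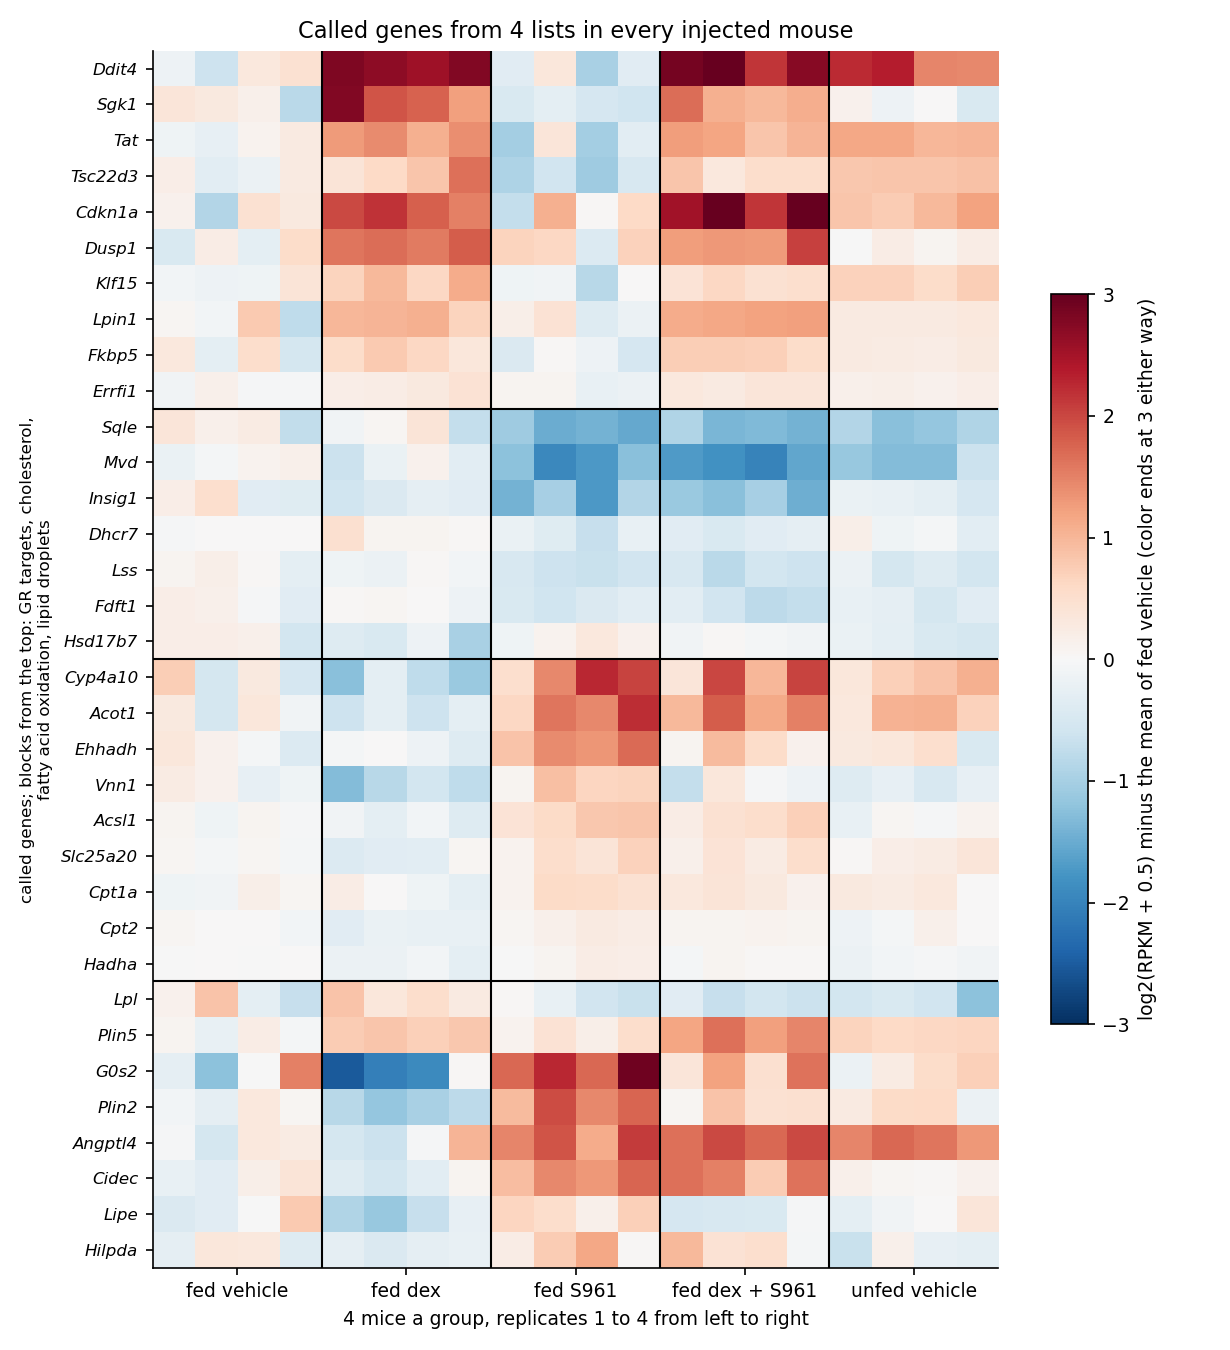
Log2(RPKM + 0.5) minus the mean of the fed vehicle mice (color, ending at 3 either way) for called genes from 4 lists (rows, in blocks from the top: 10 GR targets, 7 cholesterol genes, 9 fatty acid oxidation genes, 8 lipid droplet genes) in each of the 20 injected mice (columns). GR targets are red in the dex columns, most cholesterol genes are blue in the S961 columns, and most genes of the lower 2 blocks are red in the S961 columns.

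Targets of FOXO1 and other genes repressed by insulin were partly on the S961 side, with 4 of 19 higher with S961, 0 higher with dex and a median of -0.29. Besides Txnip, these were G6pc, Insig2 and Mttp. G6pc (NM_008061, chromosome 11, 101228875 to 101239217), glucose-6-phosphatase, stood at 44.4, 68.5, 62.3 and 40.1 RPKM with dex and at 153, 258, 236 and 284 with S961, without overlap (-2.10, SE 0.33, limma adjusted p = 0.00041). Insig2, which retains SREBP in the endoplasmic reticulum, had 30.2 to 41.6 against 49.7 to 106 RPKM (-1.06, SE 0.23, limma adjusted p = 0.0065), and Mttp, which loads lipid onto apoB, had 69.8 to 75.2 against 93.9 to 146 (-0.61, SE 0.11). Igfbp1, an insulin-repressed binding protein that the study follows, overlapped between the groups. It stood at 65.8, 42.9, 32.0 and 25.6 RPKM with dex and 7.58, 43.5, 7.37 and 21.3 with S961 (1.33, SE 0.56, limma adjusted p = 0.18), and averaged 112 ± 60.1 RPKM (SD, n = 4) with both injections. Ulk1, a kinase of autophagy, had nearly the same level in both groups (-0.03, SE 0.17, limma adjusted p = 0.95) and a mean of 13.7 RPKM in vehicle mice.

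Gluconeogenesis split between its key enzymes, and 10 of the 12 genes tested were not called. Pck1 (NM_011044, chromosome 2, 172978549 to 172984774), phosphoenolpyruvate carboxykinase, had 985, 1236, 949 and 955 RPKM with dex and 515, 914, 397 and 636 with S961. Dex lay above S961 in every mouse by a small margin over S961 replicate 2 (0.80, SE 0.19, limma adjusted p = 0.012), and the call was lost with the 8 libraries fitted alone. G6pc was higher with S961, as above, so Pck1 and G6pc differed in opposite directions.

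Glucose uptake and glycogen genes included a pair of related genes that differed in opposite directions. Of 15 tested, 2 were higher with dex and 3 with S961, with a median of -0.03. Ppp1r3c (NM_016854, chromosome 19, 36806227 to 36811143) and Ppp1r3g both encode subunits that target protein phosphatase 1 to glycogen. Ppp1r3c had 43.2, 57.9, 64.0 and 103 RPKM with dex and 8.75, 15.4, 14.4 and 10.7 with S961 (2.36, SE 0.32, limma adjusted p = 0.00011). Ppp1r3g had 1.24, 0.267, 0.200 and 1.65 RPKM with dex and 4.98, 6.19, 3.56 and 8.69 with S961 (-2.35, SE 0.49, limma adjusted p = 0.0048). Mice with both injections were above the mean of the higher group for each, with means of 104 RPKM for Ppp1r3c and 6.86 RPKM for Ppp1r3g. Pfkfb1 (-0.40) and the liver glycogen phosphorylase Pygl (-0.30) were slightly higher with S961, Pygl near the threshold.

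**Figure D4:**
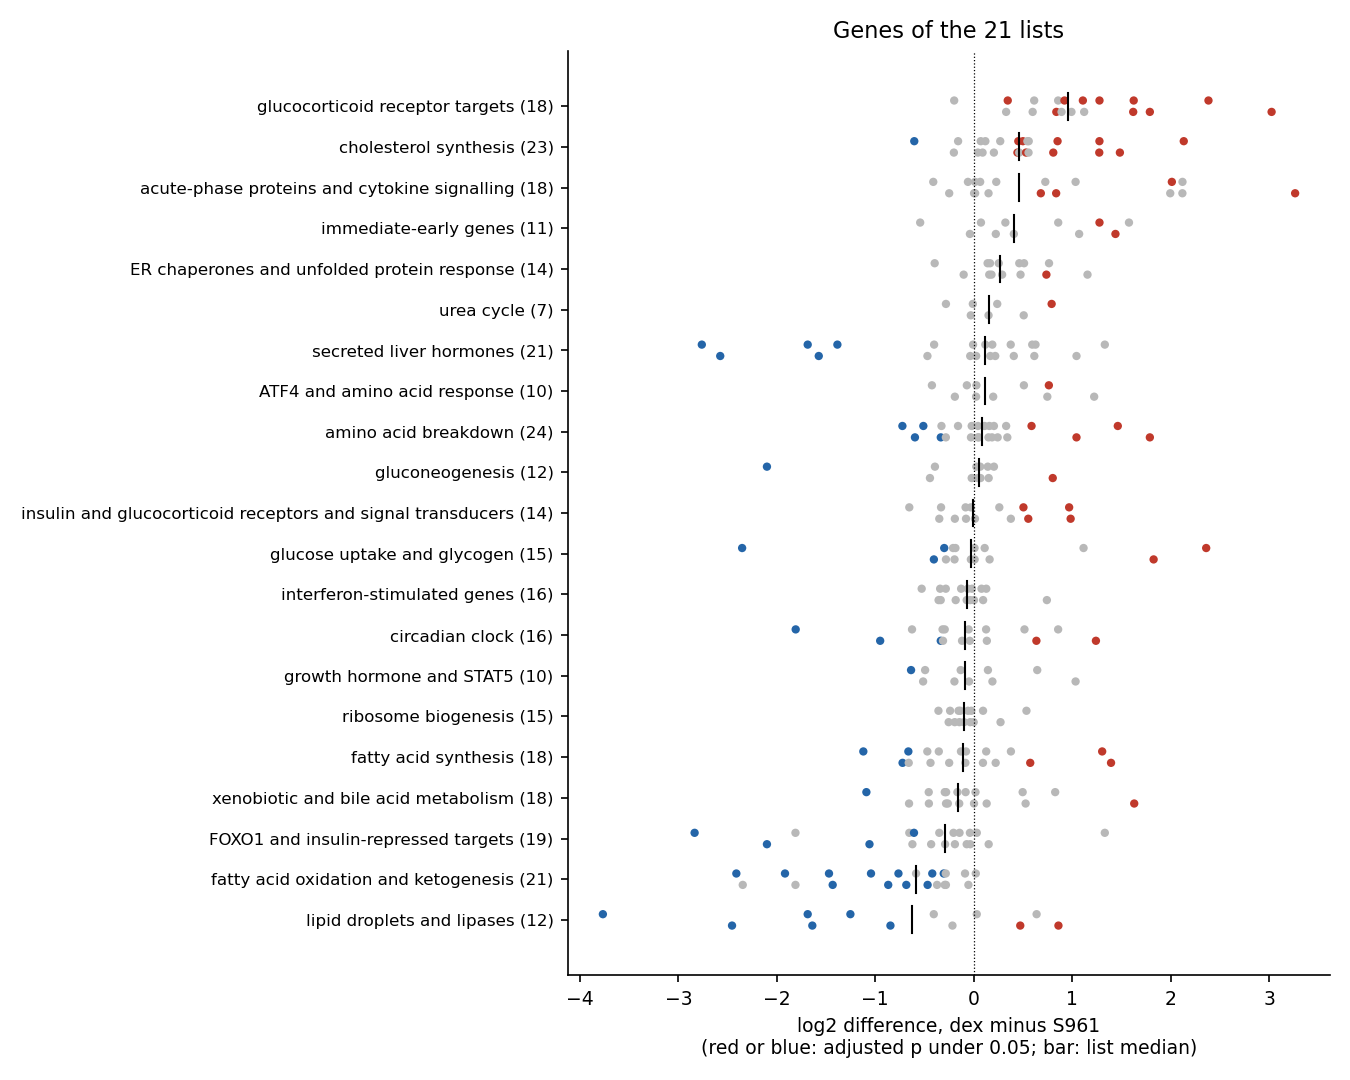
Log2 difference, dex minus S961 (x axis), for each gene tested of 21 lists (rows, number of genes in parentheses), ordered by the list's median (bar). Red points were called higher with dex, blue points higher with S961, and gray points were not called. GR targets have the highest median, 0.96, and lipid droplet genes the lowest, -0.63.

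Amino acid breakdown had 4 of 24 genes called on each side and a median of 0.08. With Tat, the dex side held Sds (192 to 525 RPKM against 80.1 to 165; 1.46, SE 0.25) and Sdsl (1.04), which deaminate serine, and the liver glutaminase Gls2 (0.59). The S961 side held the ornithine aminotransferase Oat (-0.72), the kynurenine pathway enzymes Kynu (-0.60) and Kmo (-0.51), and Bckdhb (-0.33), a subunit of the branched-chain ketoacid dehydrogenase. Gls2 was not called in 8 of 20 alternatives and Bckdhb in 11 of 20, and with the 8 libraries fitted alone 1 member was higher with S961. In the urea cycle 1 of 7 genes was called, against 7.47% over all genes tested. It was the ornithine carrier Slc25a15, with 169 to 230 RPKM with dex and 101 to 140 with S961 (0.79, SE 0.15, limma adjusted p = 0.0017). The count was 4 without dex replicate 4 and 2 without S961 replicate 4.

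Among hormones secreted by the liver, 5 of 21 were higher with S961 and 0 with dex, although the median was 0.12. Inhbe (NM_008382, chromosome 10, 126786458 to 126788828), the activin E subunit, had 6.01, 5.16, 8.41 and 15.3 RPKM with dex and 38.8, 59.9, 51.0 and 89.3 with S961 (-2.76, SE 0.30, limma adjusted p = 1.5e-05). Fgf21 (NM_020013, chromosome 7, 52869277 to 52870860), a hormone of fasting and nutrient stress, was listed at 0 in dex replicates 2 and 4, stood at 0.489 and 0.294 RPKM in the other dex mice, and had 1.41, 2.37, 4.55 and 8.44 RPKM with S961. The difference of -2.58 (SE 0.44, limma adjusted p = 0.00088) is set in part by the 0.5 RPKM added before the log. Angptl4 was described above. Angptl8, a regulator of lipoprotein lipase that insulin induces, had 10.4 to 29.5 RPKM against 38.0 to 84.0 (-1.57, SE 0.44, limma adjusted p = 0.032). The Angptl8 call was lost in 5 of 20 alternatives. Il1rn, the IL-1 receptor antagonist, was the fifth.

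Receptors and signal transducers had 4 of 14 genes higher with dex, 0 higher with S961 and a median of -0.01. These were the PI3-kinase subunit Pik3r1 (20.8 to 33.1 RPKM against 9.01 to 17.8; 0.98, SE 0.19), Foxo3 (0.97), Foxo1 (13.1 to 15 against 8.07 to 11.2; 0.55, SE 0.09, limma adjusted p = 0.0005) and the mineralocorticoid receptor Nr3c2 (0.51). The count was 2 without dex replicate 1, dex replicate 4 or S961 replicate 3 and with the 8 libraries fitted alone, Foxo3 was not called in 7 of 20 alternatives and Nr3c2 in 8 of 19. The receptors for both agents were not called, with a difference of 0.01 (SE 0.21, limma adjusted p = 0.99) for Nr3c1 and -0.35 (SE 0.13, 0.13) for Insr. In the growth hormone and STAT5 list 1 of 10 genes was called, against 7.47% over all genes tested. It was Stat5a (-0.64), which was lost without dex replicate 1 or 2, without S961 replicate 4 and with the 8 libraries fitted alone.

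Clock genes divided as well, with 2 of 16 higher with dex and 3 with S961, and a median of -0.09. Ciart, a repressor in the clock loop, stood at 21.7, 24.7, 22.4 and 22.4 RPKM with dex and 9.77, 11.8, 6.23 and 10.5 with S961 (1.24, SE 0.15, limma adjusted p = 4.9e-05), and the cryptochrome Cry2 was higher with dex (0.64, SE 0.13). Nr1d1 (REV-ERB alpha), a repressor of Arntl, had 1.20, 1.34, 2.48 and 6.81 RPKM with dex and 8.76, 8.45, 8.07 and 14 with S961 (-1.81, SE 0.36, limma adjusted p = 0.0032). In both groups replicate 4 was the highest. Bhlhe40, a repressor of the clock loop, was also higher with S961 (-0.95).

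Of 18 acute-phase and cytokine signaling genes, 4 were higher with dex and 0 with S961, and the median was 0.46. With Lcn2, these were Saa3 (10.3 to 17.5 RPKM against 1.68 to 4.46; 2.01, SE 0.33), the IL-6 receptor Il6ra (34.3 to 46.2 against 17.1 to 26.8; 0.84, SE 0.15), and haptoglobin, Hp (2049 to 2525 against 1118 to 1903; 0.68, SE 0.14). Saa1 and Saa2 had differences of 2.12 and 2.00 but were not called (limma adjusted p = 0.068 and 0.13), and S961 replicate 2, at 766 and 498 RPKM, lay among or above the dex mice for both. The number of members higher with dex was 4 to 8 with 1 library left out, 8 without S961 replicate 2.

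The remaining lists held few calls, to be read beside the 7.47% called over all genes tested. Immediate-early genes had Btg2 (1.44, SE 0.28) and Dusp1 higher with dex of 11 tested. The endoplasmic reticulum chaperones had 1 of 14 (Herpud1, 0.74), the amino acid response 1 of 10 (Mthfd2, 0.76), ribosome biogenesis 0 of 15 and interferon-stimulated genes 0 of 16. With 1 library left out the chaperone count ran from 0 to 4, with 4 without dex replicate 1 and 0 without dex replicate 3 or 4 or S961 replicate 3 or 4. The amino acid response count ran from 0 to 2, with 2 without S961 replicate 2 and 0 without dex replicate 1, 3 or 4 or S961 replicate 4. Herpud1 was not called in 7 of 20 alternatives and Mthfd2 in 3 of 15. In xenobiotic and bile acid metabolism 1 of 18 genes was called on each side, the enzymes that open and steer bile acid synthesis. Cyp7a1, the rate-limiting 7-alpha-hydroxylase, had 88.8, 73.2, 88.5 and 119 RPKM with dex and 52.8, 12.1, 52.5 and 20.9 with S961 (1.63, SE 0.37, limma adjusted p = 0.0084). The Cyp7a1 call was lost with the 8 libraries fitted alone (adjusted p = 0.076) and within replicates 1 to 3 (1.35, adjusted p = 0.067, both limma). Cyp8b1, the 12-alpha-hydroxylase that sets the share of cholic acid, had 140, 90.8, 112 and 150 RPKM with dex and 217, 260, 229 and 341 with S961 (-1.09, SE 0.22, limma adjusted p = 0.0034). Vehicle mice averaged 139 ± 20.6 RPKM of Cyp7a1 (SD, n = 4), and the S961 mice were lower than these (-2.22, limma adjusted p = 0.0041).

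Summed markers of 11 cell types gave no difference past the threshold between the groups by the exact permutation test (two-sided, smallest p possible 0.029), with adjusted p of at least 0.58. After adjustment over the 11 lists no single list could have passed the threshold at 4 mice a group, so the ranges are given as a description. Hepatocyte markers summed to 44614 to 77661 RPKM with dex and 52879 to 59241 with S961, and Kupffer cell and macrophage markers to 83.0 to 163 and 78.9 to 131. Endothelial markers summed to 85.6 to 112 and 104 to 111, with 1 of 8 called higher with dex (Lyve1) and 2 higher with S961 (Kdr and Fcgr2b). In stellate cell and fibroblast markers, 1 of 7 was called (Col3a1, higher with dex). The markers of T and NK cells were nearly absent, with sums of 0.756 to 1.85 and 1.06 to 2.06 RPKM and 8 of 10 below 0.5 RPKM. Neutrophil markers, which bear on Lcn2, summed to 0.770 to 5.08 and 0.151 to 2.25, with 3 of 6 below 0.5 RPKM, and their part in the result was not tested. In whole liver, fewer cells of a type and less RNA per cell cannot be told apart.

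The called genes were then looked up in mice that share no sample with the injected mice. In L-GRKO mice, floxed for Nr3c1 and given AAV8 with Cre under the hepatocyte Tbg promoter, livers were taken unfed at ZT14 and compared with floxed mice given AAV-GFP, 4 against 4. Nr3c1 itself was lower by -1.58 (SE 0.12, limma adjusted p = 6.8e-05). Over all genes 519 were higher (4.46%) and 259 lower (2.22%) in L-GRKO, a balance that turned to 288 higher and 368 lower with median-ratio scaling and to 337 and 360 with quantile normalization. Of the 310 genes higher with dex that were tested there, 72 were lower in L-GRKO (23.2%) and 8 were higher (2.58%). Of the 517 higher with S961, 100 were higher in L-GRKO (19.3%) and 11 lower (2.13%), against 3.85% higher and 1.68% lower among genes not called. With median-ratio scaling these shares were 28.1% lower and 0.968% higher for the dex side, 12.4% higher and 2.71% lower for the S961 side, and 2.06% higher and 2.57% lower for the rest. Of the 18 GR targets, 12 were lower in L-GRKO and 0 higher, Fkbp5 by -2.64 and Ddit4 by -2.30, whereas Sgk1 was not called (0.08, limma adjusted p = 0.84).

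L-IRSdKO mice, on a C57BL/6J background in the study's methods, lack Irs1 and Irs2 in the liver through Alb-Cre, and they and their floxed controls, 4 against 4, were all fed and injected with dex. Irs1 was lower by -2.66 (limma adjusted p = 0.00092), and Irs2 was not called (-0.79, limma adjusted p = 0.31). Over all genes 2253 were called (17.4%), 1175 higher (9.06%) and 1078 lower (8.31%). Of the 520 genes higher with S961, 135 were higher in L-IRSdKO (26.0%) and 37 lower (7.12%), and of the 318 higher with dex, 34 were higher (10.7%) and 54 lower (17.0%), against 8.27% and 9.09% among genes not called. With median-ratio scaling the shares higher and lower were 22.7% and 8.27% for the S961 side and 10.1% and 18.6% for the dex side, against 7.34% and 10.9% for the rest. Of the 23 cholesterol genes, 19 were lower in L-IRSdKO and 0 higher, and of the 21 fatty acid oxidation genes, 10 were higher and 1 lower. G0s2 and Inhbe, both higher with S961, were lower in L-IRSdKO (-1.87 and -2.82, limma adjusted p = 0.0069 and 0.0068), and Tff3, higher with dex, was higher there (4.64, 0.0011).

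In lean mice on chow from the diet experiment, 3 fed against 3 unfed at ZT14, 1841 genes were higher (16.1%) and 832 lower (7.28%) after the meal. Of 308 genes higher with dex, 93 were lower after the meal (30.2%) and 29 higher (9.42%), and of 520 higher with S961, 79 were lower (15.2%) and 90 higher (17.3%), against 6.4% lower and 16.5% higher among genes not called. With median-ratio scaling, 1210 genes were higher and 1126 lower over all genes. Then 32.5% of the dex side and 18.3% of the S961 side were lower, against 9.03% of the rest, and 6.82% and 14.5% were higher, against 10.6% of the rest. Among the GR targets, 16 of 18 were lower after the meal and 0 higher.

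**Figure D5:**
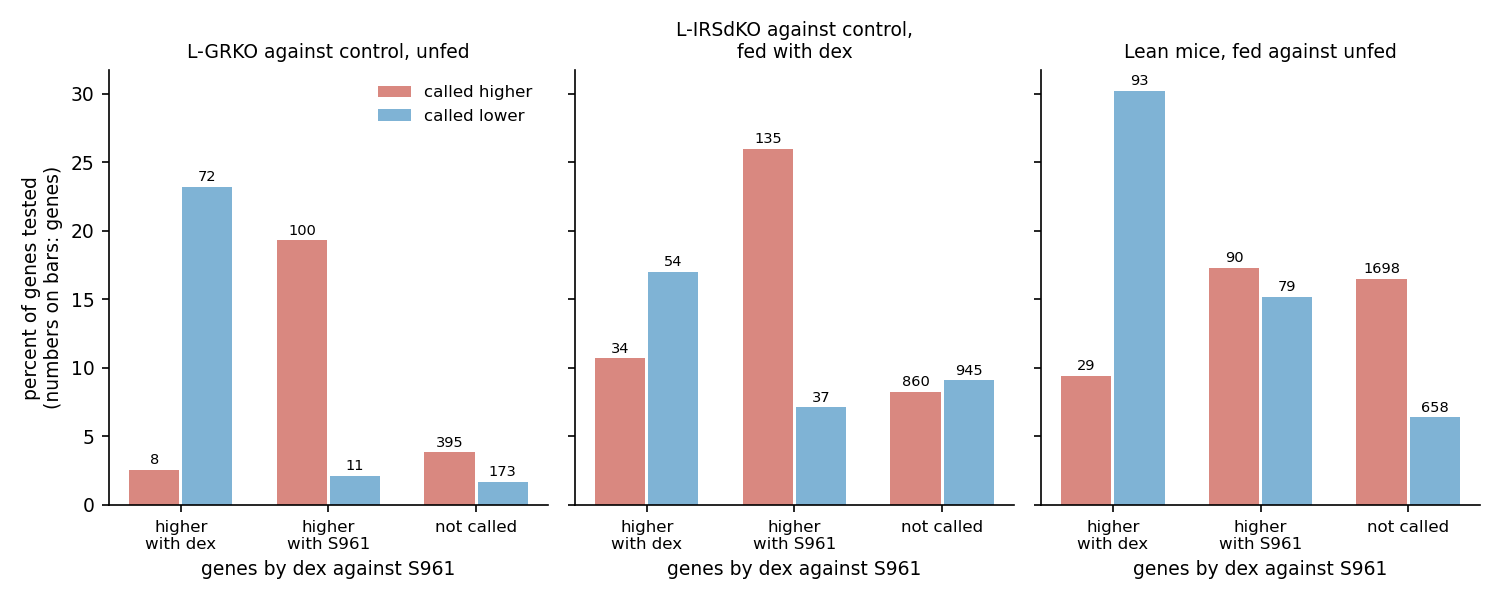
Share of genes (y axis, percent) called higher (red) or lower (blue) in L-GRKO against control livers, L-IRSdKO against control livers and fed against unfed lean livers, for genes higher with dex, higher with S961 or not called in dex against S961 (x axis). Numbers on the bars are genes. Genes higher with dex were lower in L-GRKO in 23.2% of cases, and genes higher with S961 were higher in L-IRSdKO in 26.0%.

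GR and FOXO1 peaks lay near both sets of genes. Of the 313 genes higher with dex that could be placed, 75.1% had a GR peak within 50 kb of the start (Wilson 95% interval 70 to 79.5) and 64.9% a FOXO1 peak (59.4 to 69.9). Of the 505 higher with S961, 70.7% had a GR peak (66.6 to 74.5) and 73.1% a FOXO1 peak (69.0 to 76.8). Among genes not called the shares were 46.1% and 49.5%. FOXO1 peaks without a GR peak occurred at 5.11% of genes higher with dex, 13.3% of those higher with S961 and 14.3% of those not called. The mean number of GR peaks per gene was 2.27, 1.99 and 0.994 for these 3 sets, and of FOXO1 peaks 1.49, 1.80 and 0.931. Intervals cover counting error only, and genes that lie together share peaks.

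The letters of the motifs were counted in the peaks near each set. ACANNNTGT occurred on either strand in 28.8% of the 666 GR peaks near genes higher with dex (25.5 to 32.4) and in 18.3% of those near genes higher with S961 (15.9 to 21), against 20.3% of all 10446 GR peaks. The longer form with GA before the core, which contains it, occurred in 12.6% (10.3 to 15.4) and 5.37% (4.07 to 7.05), against 7.79% of all. GTAAACA occurred in 15.4% of the 436 FOXO1 peaks near genes higher with dex (12.3 to 19.1) and 18.7% of the 803 near genes higher with S961 (16.1 to 21.5), intervals that overlap, against 18.8% of all 8546. In the promoters of all genes in RefSeq, 27025 windows of 300 bases, the 3 motifs occurred in 6.9%, 0.962% and 3.55%. In the 8866 promoters of genes tested, the 3 motifs occurred in 4.06%, 0.53% and 2.66%. The shares were 6.15%, 0% and 1.64% in 244 promoters of genes higher with dex. In 415 promoters of genes higher with S961 they were 2.89%, 0.241% and 3.13%. The longer GR form is rare in promoters, at 47 of the 8866 of genes tested. Its count of 0 in 244 promoters of genes higher with dex is near that share and is no result about that set. A peak near genes of both sets was counted for each. Ddit4, G6pc and Cyp4a10 each have GR and FOXO1 peaks within 2 kb of the start, and those peaks hold none of the 3 motifs. Peaks farther from these genes were not read gene by gene.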

How the data were processed

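Poly(A) RNA of single livers was sequenced, and the authors aligned reads to mm9 with STAR, deposited RPKM values on 35707 RefSeq IDs, and called genes with DESeq2 on counts not used here. GR and FOXO1 peaks were called with HOMER by the authors and deposited as positions of 180 bases from unfed ZT14 livers.

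For each of 24312 symbols the RefSeq ID with the greatest mean was kept. Genes averaging 0.5 RPKM or more over 20 libraries were fitted on log2(RPKM + 0.5) with limma 3.58.1 (R 4.3.3), with a variance trend and the 5 injected groups together, and BH-adjusted at 0.05. The L-GRKO, L-IRSdKO and diet experiments were fitted apart. A change in a few abundant genes can shift the RPKM of all others. No counts were used, and the relative depth of the 8 libraries, estimated from the steps of their low RPKM values, differed by at most 1.56-fold. Within a group, libraries correlated at 0.943 to 0.988. In simulated data for this comparison with 11251 genes, 21% of changes of 0.5 and 86% of changes of 1 (log2) were found, with 8.55% false calls.

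Named genes are the 12 largest called differences in each direction without overlap and at least 2 RPKM in the higher group, up to 4 called members per direction of 21 lists, the genes the study names for these injections, Nr3c1 and Insr. The genes and lists were chosen with earlier results of these data known. Markers were summed per mouse and tested by exact permutation, and peaks were joined to the 10861 genes with a GENCODE start. Promoter windows, 250 bases before to 50 after the start, are from RefSeq. Alternatives were pseudocounts, filters, scalings, RefSeq IDs, no trend, a replicate block, the groups alone, the library series, peak distances and each library left out. Python 3.11.15, pandas 2.3.3, numpy 2.4.6 and scipy 1.17.1 were used. Some list members are counted but not reported here by name.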

Additional observations from a re-analysis of the deposited data

Results flagged for a closer look

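Of 162 groups of 4 mice checked for the named genes, 7 held a mouse far from the other 3. At 1 in 20 groups chance would give about as many. That rate may not hold here, since most genes were named from these same values and all share the same mice. S961 replicate 2 stood at 101 RPKM for Lcn2, with the others at 5.23 to 21, and dex replicate 4 at 63.5 RPKM for G0s2, with the others at 10.3 to 16.2. Dex replicate 2 had 1236 RPKM of Pck1, against 949 to 985. Among S961 mice, replicate 3 had 95.8 RPKM of Kynu (others 62.0 to 67.0) and 9.54 RPKM of Dusp1 (others 19.9 to 20.9). S961 replicate 4 had 132 RPKM of Kmo (others 170 to 174) and 14 RPKM of Nr1d1 (others 8.07 to 8.76).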

How the results depend on the processing

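The genes called between dex and S961 numbered 318 higher with dex and 522 higher with S961, and were 146 and 255 with the 8 libraries fitted alone and 568 and 875 with a term for the library series. With each library left out in turn they were 234 to 346 and 362 to 538. Replicate numbers did not meet the rule for pairing (same-number correlations of 0.0981, 0.0436, 0.168 and 0.441, where each had to pass 0.1). By the 0.441, both replicates 4 deviated together. Replicate 4 of each group correlated at -0.311 to -0.0733 with replicates 1 to 3 of the other. These correlations are of deviations from the group mean, which cancel within a group, so the negative values are no separate evidence. With a replicate block the counts were 529 and 841, with dex against vehicle 240 higher and 728 lower, with S961 196 and 236, with dex plus S961 1588 lower, in unfed mice 172 and 756, and in L-IRSdKO 1444 in all. Of the 77 named genes called, 50 were called under every alternative in which they were tested, 27 were not under at least 1 (22 with the groups alone), and 0 changed sign. Ulk1 and Nr3c1, near 0, ranged over -0.17 to 0.08 and -0.13 to 0.17 with 1 library left out.

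Against vehicle, dex gave 113 genes higher and 246 lower, and these were 47 and 40 with the groups alone and 264 and 832 with the series term, and lower genes were 107 after median-ratio scaling and 122 after quantile normalization. With 1 library left out the counts were 72 to 168 and 86 to 369, with 75 and 90 without dex replicate 1, 72 and 86 without dex replicate 2, and 157 and 114 lower without vehicle replicates 1 and 2. S961 gave 106 and 108, which were 16 and 8 with the groups alone and 202 and 276 with the series term, and lower genes were 55 and 63 with the 2 scalings. The range was 64 to 136 and 43 to 145, with 65 and 48 without vehicle replicate 1, 64 and 62 without S961 replicate 2, 66 and 50 without S961 replicate 4, and 43 and 68 lower without vehicle replicates 2 and 3. Dex plus S961 gave 304 and 889, which were 468 and 305 with median-ratio scaling, 476 and 1728 with the series term, and 319 lower with quantile normalization and 573 lower with the groups alone. The range was 208 to 297 and 459 to 796, with 479 lower without vehicle replicate 2 and 459 without replicate 2 of both injections. Unfed mice gave 65 and 287, which were 116 and 100 with median-ratio scaling, 203 and 833 with the series term and 102 and 113 under quantile normalization. The range was 19 to 79 and 67 to 315, with 30 and 127, 33 and 91, and 41 and 150 without vehicle replicates 1, 2 and 3, and 26 and 97, 19 and 67, and 27 and 94 without unfed replicates 1, 2 and 3.

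L-GRKO gave 778 genes (466 without the filter, 391 to 708 with 1 left out, 432 without control replicate 2, 428 and 391 without L-GRKO replicates 1 and 2). L-IRSdKO gave 2253 (1080 to 3021, 1479 without control replicate 4, 1080, 1163 and 1140 without L-IRSdKO replicates 2, 3 and 4), and the lean meal 2673 (1727 to 2269, 1777 without unfed replicate 2, 1727 without fed replicate 2). Within 20 kb, GR and FOXO1 peaks lay at 56.9% and 44.1% of genes higher with dex and 55.0% and 56.4% of those higher with S961, and within 100 kb at 85.3% and 79.6%, and 79.4% and 82.6%. The cause of these changes was not tested. Low RPKM values rest on few reads.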

Other observations

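Cyp2a4, a steroid hydroxylase, had a log2 difference as large as that of G0s2 in size and was noted after its values were seen, since its groups overlap. It stood at 7.62, 165, 44.9 and 0.135 RPKM in the dex mice and at 0.683, 0.562, 0.217 and 0.749 in the S961 mice (3.77, SE 1.01, limma adjusted p = 0.0257). Dex replicate 4 was the lowest of all 8 mice. Cyp2a4 has a close paralog, so that its reads could be split between the copies.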
